A study of Mus musculus with 18 samples.

Results

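The genes described here are 9 genes of the kidney tubule that serve the uptake of filtered protein and the handling of vitamin D, phosphate and calcium: *Lrp2*, *Cubn*, *Amn*, *Dab2*, *Kl*, *Vdr*, *Cyp27b1*, *Cyp24a1* and *Pth1r*. They were given as a list of names, chosen with earlier results of these data known. They were read by Ensembl identifier from a table of 45706 genes, of which 30346 had a count. RNA was sequenced from whole kidneys of 18 male C57BL/6 littermate mice, in which both kidneys had been ischemic for 22.5 min and then reperfused for 12 h. There were 5 *Cxcl12* KO mice with 3 mice as *Cxcl12* Control, and 5 *Myc* KO mice with 5 as *Myc* Control, and the comparisons ask how each deletion changed gene expression in the injured kidney. KO mice carried the floxed gene, the transgene Pax8rtTA and the transgene TetOCre, so that doxycycline switched on the recombinase. Control mice carried the floxed gene and Pax8rtTA without TetOCre. All groups received doxycycline in the drinking water, which was then withdrawn before the injury. All 4 groups were therefore injured, floxed and given doxycycline, and no uninjured kidney is compared here. The Pax8 promoter is active in tubule cells, whereas the RNA came from the whole organ, so that fewer cells of a type and less RNA per cell cannot be told apart.

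Megalin, the product of *Lrp2*, and cubilin, the product of *Cubn*, are large receptors at the brush border of the proximal tubule that take up filtered proteins, among them the carrier of vitamin D. The carrier brings 25-hydroxyvitamin D into the cell, where the enzyme encoded by *Cyp27b1* activates it and the enzyme encoded by *Cyp24a1* inactivates it. Parathyroid hormone acts through the receptor encoded by *Pth1r* and raises the activating enzyme, whereas FGF23 acts through klotho, the product of *Kl*, and favours the inactivating enzyme. The active hormone binds the vitamin D receptor, encoded by *Vdr*, and *Cyp24a1* is among the best known targets of that receptor.

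The target genes were examined first. *Cxcl12* was at 29.3, 36.7, 28.8, 26.1 and 40.7 CPM (counts relative to library size, scaled by the TMM method over all 18 kidneys) in *Cxcl12* KO kidneys and at 55.2, 60.4 and 45.2 CPM in their controls. The groups did not overlap, although the adjusted p of 0.094 (edgeR quasi-likelihood test, Benjamini-Hochberg) missed the threshold of 0.05. *Myc* was at 36.2, 28.9, 29.4, 26.4 and 32.7 CPM in *Myc* KO kidneys and at 119.8, 91.5, 86.8, 98.4 and 79.1 CPM in controls, with a log2 fold change of -1.61 ± 0.12 (SE) and an adjusted p of 8.8e-05. Both targets thus lay on the side their labels give. The reads counted on genes ranged from 12918220 to 29749500 per kidney. The unmapped share was below 5% in 6 kidneys, which comprised 2 of each KO group, 2 of *Myc* Control and 0 of *Cxcl12* Control. These 6 were also the most deeply sequenced, with 22437067 to 29749500 reads on genes against at most 18006784 in the others. A split at 5% thus separates the kidneys by depth as well. Markers of the proximal tubule, loop, distal tubule and collecting duct were counted in each group, while the adrenal genes *Cyp11a1*, *Cyp11b1* and *Cyp21a1* had at most 15 counts in any kidney.

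Klotho, the receptors and *Cyp24a1* were all well counted, and *Cyp27b1* was not. On a scale per exon length (TPM, mean of 18 kidneys), *Dab2* stood at 351 and *Pth1r* at 288.5. They were followed by *Cyp24a1* at 190.8, *Amn* at 182.9, *Lrp2* at 162.5, *Kl* at 123, *Vdr* at 102.6 and *Cubn* at 46.9 TPM. *Cyp27b1* was far lower, at 6.04 TPM, and rested on only 33 to 269 counts per kidney, against at least 773 counts for each of the others. The enzymes also varied most, with a coefficient of variation over the 18 kidneys of 85.5% for *Cyp27b1* and 63.9% for *Cyp24a1*, whereas that of the other 7 genes lay between 16.05% and 24.5%.

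All positions are those of GENCODE vM21 on GRCm38. *Lrp2* (ENSMUSG00000027070, chr2:69424340-69586065), *Cubn* (ENSMUSG00000026726, chr2:13276338-13491813) and *Cyp24a1* (ENSMUSG00000038567, chr2:170482708-170497145) lie on the minus strand of chromosome 2. *Amn* (ENSMUSG00000021278) lies at chr12:111271095-111276426 and *Dab2* (ENSMUSG00000022150) at chr15:6299788-6440712, both on the plus strand. *Kl* (ENSMUSG00000058488) occupies chr5:150952607-150993817 and *Cyp27b1* (ENSMUSG00000006724) chr10:127048250-127053006, also on the plus strand. *Vdr* (ENSMUSG00000022479, chr15:97854425-97910630) and *Pth1r* (ENSMUSG00000032492, chr9:110722085-110747145) lie on the minus strand. Exons of *Cubn*, *Cyp24a1* and *Pth1r* overlap a gene of the other strand (*Gm13270*, *Pfdn4* and *Myl3*) over 2.46%, 2.33% and 3.25% of their exon length, and the counts without strand cannot assign reads there. The counts were made per gene over its exons, so that untranslated and coding parts cannot be separated.

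Since several members are known to answer to the vitamin D receptor, the 250 bases before the RefSeq start sites were searched on both strands for the letters of its half-site (AGGTCA or GGGTCA and, with T as the third base, AGTTCA or else GGTTCA). The E-box CACGTG, the GC box GGGCGG, the TATA box TATAAA and the cyclic AMP element TGACGTCA were searched as well. RefSeq windows were at hand for 8 of the 9 genes, and *Cyp24a1* had none. A half-site lay before *Vdr*, *Kl* and *Cubn*, and 38.6% of 32851 windows of the same length hold one. No window of a member held 2 half-sites in direct repeat spaced by NNN, which 0.0396% of windows hold. The E-box was found before *Amn*, 26 to 21 bases before the start, and in 6.02% of windows. GGGCGG was found before *Lrp2*, *Kl*, *Pth1r*, *Amn* and *Vdr*, and in 32.7% of windows. The TATA box and the cyclic AMP element were in none of the members' windows, and in 12.4% and 1.55% of all windows. A match describes the letters and not a binding site. The stretches of the 3 genes with a half-site and of *Amn* are given in RefSeq sequence of GRCm38.p6, 5′ to 3′ on the strand of the gene, with bases annotated as exon left out. Capitals mark the half-site, which reads on the opposite strand in each of the first 3, and the E-box in *Amn*. The *Vdr* stretch lies at chr15:97908311-97908546 (minus strand), inside the annotated gene at an inner start, that of *Kl* at chr5:150952357-150952606 (plus), that of *Cubn* at chr2:13491877-13492126 (minus) and that of *Amn* at chr12:111270846-111271094 (plus).
Vdr: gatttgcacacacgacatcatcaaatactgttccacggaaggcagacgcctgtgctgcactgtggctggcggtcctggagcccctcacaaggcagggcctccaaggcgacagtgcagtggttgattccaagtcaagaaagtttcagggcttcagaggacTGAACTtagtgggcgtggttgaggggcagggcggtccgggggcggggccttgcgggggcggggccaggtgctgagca
Kl: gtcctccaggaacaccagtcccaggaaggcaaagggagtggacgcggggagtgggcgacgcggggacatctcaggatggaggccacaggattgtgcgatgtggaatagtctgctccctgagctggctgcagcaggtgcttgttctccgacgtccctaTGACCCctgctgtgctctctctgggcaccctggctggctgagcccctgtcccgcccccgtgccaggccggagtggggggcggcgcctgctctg
Cubn: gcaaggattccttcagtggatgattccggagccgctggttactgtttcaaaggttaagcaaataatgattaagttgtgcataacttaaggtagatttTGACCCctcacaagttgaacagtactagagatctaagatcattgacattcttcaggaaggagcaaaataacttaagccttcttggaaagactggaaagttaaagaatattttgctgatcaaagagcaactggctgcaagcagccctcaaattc
Amn: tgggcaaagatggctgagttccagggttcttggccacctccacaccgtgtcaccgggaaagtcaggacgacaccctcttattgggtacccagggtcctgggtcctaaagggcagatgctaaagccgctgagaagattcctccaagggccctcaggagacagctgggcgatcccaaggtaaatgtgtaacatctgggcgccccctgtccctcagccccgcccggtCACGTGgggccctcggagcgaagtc
The half-site ends 86 bases before the start in *Vdr*, 88 in *Kl* and 148 in *Cubn*.

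Among the *Cxcl12* mice, most of the 9 genes were lower in KO kidneys, the receptor *Pth1r* and the enzyme *Cyp24a1* by the widest margins relative to their errors. All 9 passed the filter on low counts. None of the 9 passed an adjusted p of 0.05, and neither did any of the 15154 genes tested (0%, edgeR). With an unadjusted p under 0.05 there were 5 members (*Lrp2*, *Cubn*, *Vdr*, *Cyp24a1* and *Pth1r*, each lower in KO), beside 13% of all genes. DESeq2 called 1 member, *Pth1r*, beside 2.34% of all genes, and edgeR without the filter called *Cyp24a1* and *Pth1r*, beside 0.765%. Of the 9 log2 fold changes 7 were below 0, with a median of -0.31 against 0.00083 over all genes, and the exceptions were *Dab2* and *Cyp27b1*. In 3 members (*Lrp2*, *Cyp24a1* and *Pth1r*) each KO kidney lay below each control, which held for 4.78% of all genes (9.54% did not overlap in either direction). In the same kidneys 11 of 12 proximal tubule markers had a lower mean in KO, and their summed level was 3979 to 4563 CPM in KO and 4735 to 6071 CPM in control kidneys. The fall was not limited to that segment. Of 8 loop and distal tubule markers 7 were lower, with a median log2 fold change of -0.27 against -0.28 for the proximal list. Of 7 collecting duct markers 4 were lower, with a median of -0.15. Over all genes 49.8% were lower. Summed markers of injured tubules ran from 13410 to 19770 CPM in KO and from 10876 to 12552 CPM in controls, and summed leukocyte markers from 100.9 to 187.4 and from 94.8 to 104.4 CPM. *Spp1* alone made up most of the injured tubule sum, with means of 13287 CPM in KO and 8916 CPM in controls (edgeR adjusted p = 0.23). Of the 10 injured tubule genes 8 had log2 fold changes above 0 and 2 below, with 0 called. The part of these cell type levels in the results was not tested.

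**Figure D1:**
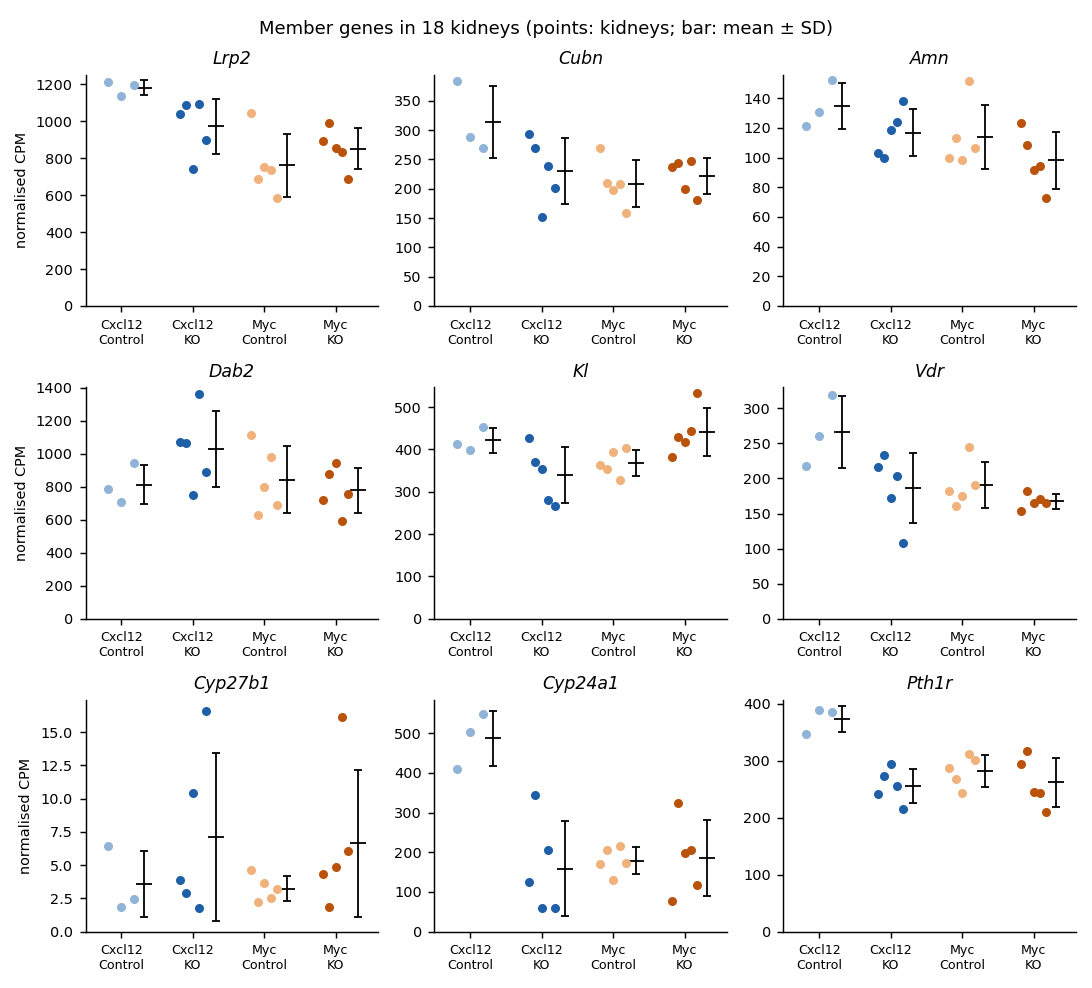
Normalised CPM (linear axis from 0) of each of the 9 genes by group, with 1 point per kidney and a bar for the mean ± SD beside the points of each group. The *Cxcl12* Control points of *Lrp2*, *Cyp24a1* and *Pth1r* lie above all *Cxcl12* KO points, while the points of the *Myc* groups overlap in all 9 genes.

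In the *Myc* cohort 0 of 9 members passed the threshold, beside 1.65% of 14936 genes, and none was without overlap between KO and control kidneys, beside 6.25%. With an unadjusted p under 0.05 there were *Kl* and *Cyp27b1*, both higher in KO, beside 21.9% of all genes. DESeq2 called 0 of the 9 and 7.63% of all genes. The log2 fold changes were below 0 for *Amn*, *Dab2*, *Vdr* and *Pth1r* and above 0 for the other 5, with a median of 0.06. Summed proximal tubule markers overlapped, at 3404 to 5417 CPM in KO and 3840 to 4992 CPM in control kidneys, as did injured tubule markers at 15294 to 23981 and 13682 to 20964 CPM. *Spp1* again made up most of the injured tubule sum, with means of 15211 and 12851 CPM. Of the 10 injured tubule genes 7 had log2 fold changes above 0 and 3 below, the lowest *Havcr1* at -1.32 ± 0.43 (SE, adjusted p = 0.12). Summed leukocyte markers lay at 212.7 to 297.1 CPM in KO and 129.4 to 280.1 CPM in control kidneys.

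The endocytic receptors were measured in the *Cxcl12* mice with little spread among controls for megalin and more for cubilin. *Lrp2* was at 1038, 1087, 742, 1094 and 899 CPM in *Cxcl12* KO and at 1211, 1134 and 1195 CPM in *Cxcl12* Control kidneys. All 5 KO kidneys lay below the lowest control, at 1094 against 1134 CPM in the closest pair. The log2 fold change was -0.28 ± 0.13 (SE), with an adjusted p of 0.38 and an exact two-sided permutation p of 0.089, where the smallest p this design allows is 0.018. *Cubn* was at 293, 269, 151, 238 and 201 CPM in KO and at 383, 289 and 269 CPM in controls, with the highest KO kidney above 2 of the 3 controls. Its log2 fold change was -0.45 ± 0.19, with an adjusted p of 0.36 and an exact p of 0.14, and it was -0.28 (adjusted p = 0.75) without *Cxcl12* Control replicate 1, the highest of the controls.

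In the *Myc* mice the same receptors had slightly higher means in KO, within the spread of the groups. *Lrp2* was at 890, 992, 855, 831 and 688 CPM in *Myc* KO and at 1045, 690, 750, 733 and 586 CPM in *Myc* Control kidneys, and the highest value of all 10 was a control. The log2 fold change was 0.18 ± 0.14 with an adjusted p of 0.47. *Cubn* was at 238, 245, 200, 248 and 180 CPM in KO and at 269, 209, 197, 209 and 158 CPM in controls, with a log2 fold change of 0.11 ± 0.13 and an adjusted p of 0.66. The direction of both differed across the split by unmapped reads, which leaves few kidneys on each side. In the 6 *Myc* kidneys with at least 5% unmapped reads the log2 fold changes were 0.45 (adjusted p = 0.092) and 0.36 (adjusted p = 0.13). In the 4 with less, 2 of each group, they were -0.19 and -0.26 (adjusted p = 0.76 and 0.63). No *Cxcl12* Control kidney had under 5% unmapped reads. In the 6 *Cxcl12* kidneys with at least 5%, *Lrp2* had a log2 fold change of -0.37 and *Cubn* of -0.67, both still past no threshold.

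Amnionless, the product of *Amn*, anchors cubilin in the membrane, and *Dab2* encodes the adaptor that links the tail of megalin to clathrin. *Amn* was at 103, 99.5, 118.5, 124 and 138 CPM in *Cxcl12* KO and at 121, 131 and 152 CPM in *Cxcl12* Control kidneys, with 3 KO kidneys below all controls. *Amn* in the *Myc* cohort was at 123.5, 108.7, 91.7, 94.4 and 72.5 CPM in KO and at 100.04, 113, 98.6, 151 and 106 CPM in controls, of which replicate 4 stood apart. The log2 fold changes were near each other, at -0.21 ± 0.12 (adjusted p = 0.50) and -0.20 ± 0.15 (adjusted p = 0.47). In the *Cxcl12* kidneys with at least 5% unmapped reads that of *Amn* was -0.083, and without *Cxcl12* Control replicate 3 it was -0.12. Without *Myc* Control replicate 4 it was -0.075, and without *Myc* KO replicate 5 -0.10, in the *Myc* cohort. *Dab2* was at 1071, 1068, 752, 1364 and 892 CPM in *Cxcl12* KO and at 788, 711 and 942 CPM in *Cxcl12* Control kidneys. Of the 4 endocytic genes it alone had a higher mean in *Cxcl12* KO, with a log2 fold change of 0.34 ± 0.18 and an adjusted p of 0.45, and 0.21 (adjusted p = 0.54) without *Cxcl12* KO replicate 4. In *Myc* KO kidneys *Dab2* was at 722, 876, 942, 591 and 758 CPM, and in controls at 1115, 632, 796, 983 and 690 CPM. The log2 fold change of -0.10 ± 0.16 (adjusted p = 0.76) was within the spread and turned to 0.014 without *Myc* Control replicate 1.

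The wider machinery of apical endocytosis was represented by 26 genes, among them clathrin, the AP-2 adaptor, Rab GTPases, the chloride transporter *Clcn5* and lysosomal cathepsins. All 26 were tested in both cohorts, and 0 passed the threshold in either direction. In *Cxcl12* KO 13 were higher and 13 lower, with a median log2 fold change of 0.0048, and in *Myc* KO 13 were higher and 13 lower, with a median of -0.0050. The extremes in the *Cxcl12* cohort were *Clcn5* at -0.25 ± 0.12 (SE) and *Ctsl*, a lysosomal protease, at 0.43 ± 0.22, with adjusted p of 0.40 and 0.43. The lowest in the *Myc* cohort was *Fcgrt*, which encodes the neonatal Fc receptor, at -0.33 ± 0.14 with an adjusted p of 0.19.

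Klotho is a membrane protein of the tubule that makes FGF receptors sensitive to FGF23. *Kl* was at 427, 370, 353, 281 and 267 CPM in *Cxcl12* KO and at 412, 399 and 454 CPM in *Cxcl12* Control kidneys. In the *Cxcl12* cohort 4 of 5 KO kidneys lay below all controls and the remaining one lay among them. Its log2 fold change was -0.31 ± 0.15 (SE), with an adjusted p of 0.39 and an exact permutation p of 0.125. It was -0.49 with an adjusted p of 0.17 in the *Cxcl12* kidneys with at least 5% unmapped reads. *Kl* in the *Myc* cohort was at 382, 430, 417, 444 and 533 CPM in KO and at 364, 354, 394, 329 and 405 CPM in control kidneys, so that 4 of 5 KO kidneys lay above all controls. Its *Myc* KO log2 fold change was 0.27 ± 0.097, with a 95% interval from 0.061 to 0.48. The adjusted p was 0.14 and the exact two-sided permutation p was 0.032, not adjusted for the number of genes. Within the split by unmapped reads the value was 0.22 (at least 5%) and 0.35 (under 5%), in the same direction.

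Of 9 partners of klotho and FGF23, 7 were tested, since *Fgf23* (a bone hormone, at most 15 counts here) and *Klb* did not pass the filter. In *Myc* KO all 7 had log2 fold changes above 0, from 0.022 ± 0.11 (SE) for the protease gene *Adam10* to 0.34 ± 0.080 for the receptor *Fgfr1*, with a median of 0.15 and 0 calls. *Fgfr1* was at 99.2 to 110 CPM in *Myc* KO and at 70.5 to 96.5 CPM in *Myc* Control kidneys without overlap, and its adjusted p was 0.053. In *Cxcl12* KO 2 were higher and 5 lower, with a median of -0.034. The range ran from *Fgfr3*, another FGF receptor, at -0.31 ± 0.12 (adjusted p = 0.32) to *Galnt3*, whose product protects FGF23 from cleavage, at 0.25 ± 0.11 (adjusted p = 0.37).

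The vitamin D receptor itself had a lower mean in both KO groups. *Vdr* was at 216, 234, 172, 203 and 108 CPM in *Cxcl12* KO and at 218, 261 and 319 CPM in *Cxcl12* Control kidneys, with 4 of 5 KO kidneys below all controls. Its log2 fold change was -0.52 ± 0.21 (SE), with an adjusted p of 0.35 and an exact p of 0.11. In *Myc* KO kidneys *Vdr* was at 153, 182, 166, 170 and 165 CPM, a narrow range, and in *Myc* Control kidneys at 182, 161, 175, 245 and 190 CPM. There the log2 fold change was -0.18 ± 0.11, with an adjusted p of 0.35 and an exact p of 0.13, and it was -0.066 (adjusted p = 0.73) without *Myc* Control replicate 4, at 245 CPM. All 5 *Myc* KO kidneys were below the control mean, but only 1 was below all controls.

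*Cyp24a1*, the inactivating 24-hydroxylase, had the largest log2 fold change of the 9 genes in size, in the *Cxcl12* cohort. It was at 126, 344, 59.4, 205 and 58.5 CPM in *Cxcl12* KO and at 410, 504 and 547 CPM in *Cxcl12* Control kidneys. No KO kidney reached the lowest control, and the KO kidneys differed among themselves by up to 5.89-fold, the controls by 1.33-fold. Its log2 fold change was -1.62 ± 0.48 (SE), a fold of 0.324 with a 95% interval from 0.156 to 0.675. The adjusted p was 0.21, and the exact two-sided permutation p was 0.054. Without the filter on low counts the adjusted p was 0.033. In the *Cxcl12* kidneys with at least 5% unmapped reads the log2 fold change was -2.18 with an adjusted p of 0.097. *Cyp24a1* in the *Myc* cohort was at 76.6, 325, 198, 206 and 119 CPM in KO and at 170, 205, 129, 215 and 174 CPM in controls. KO kidneys lay on both sides of the controls, and the log2 fold change of 0.06 ± 0.30 (adjusted p = 0.93) changed sign with single kidneys, to -0.24 without *Myc* KO replicate 2 and -0.037 without *Myc* Control replicate 3.

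*Cyp27b1*, the activating 1-alpha-hydroxylase, was scarce and uneven. It was at 3.86, 2.88, 10.5, 1.82 and 16.6 CPM in *Cxcl12* KO and at 6.43, 1.83 and 2.46 CPM in *Cxcl12* Control kidneys. Among the *Myc* mice it was at 4.33, 1.84, 4.85, 16.1 and 6.04 CPM in KO and at 4.64, 2.20, 3.70, 2.51 and 3.18 CPM in control kidneys. The mean was higher in both KO groups, in which 2 *Cxcl12* kidneys and 1 *Myc* kidney exceeded 10 CPM, while another KO kidney had the lowest value of each cohort. The log2 fold changes were 0.97 ± 0.69 (SE, adjusted p = 0.58) and 1.03 ± 0.45 (adjusted p = 0.21), with exact permutation p of 0.43 and 0.21. Without *Cxcl12* KO replicate 5 the first was 0.36, without *Cxcl12* Control replicate 1 it was 1.71, and without *Myc* KO replicate 4 the second was 0.40.

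As both enzymes act on the same hormone, the log2 ratio of *Cyp24a1* to *Cyp27b1* CPM was taken in each kidney. Its mean was 4.61 ± 2.37 (SD, n = 5) over *Cxcl12* KO kidneys and 7.30 ± 1.14 (SD, n = 3) over their controls, with an exact two-sided permutation p of 0.125. In KO it was 5.03, 6.90, 2.51, 6.81 and 1.82, and in controls 5.99, 8.11 and 7.79, so that 2 KO kidneys lay within the control range. In the *Myc* cohort the ratio was 4.99 ± 1.51 (SD, n = 5) in KO and 5.81 ± 0.66 (SD, n = 5) in controls, with an exact p of 0.30. These ratios are of counts not divided by gene length, and serve only for comparison between kidneys.

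Among 11 further genes of vitamin D handling (the partners of the receptor, the enzymes of 25-hydroxylation and their electron carriers, the binding protein and coactivators), 0 passed the threshold. In the *Cxcl12* cohort 3 were higher and 8 lower, with a median log2 fold change of -0.042. The lowest was *Rxrg*, a partner of the receptor with at most 15 counts per kidney, at -1.57 ± 0.38 (SE, adjusted p = 0.13). The highest was *Cyp2r1*, a vitamin D 25-hydroxylase, at 0.067 ± 0.41 (adjusted p = 0.96). *Rxrg* was near the floor, at 0.15 to 0.38 CPM in KO and 0.59 to 0.78 CPM in control kidneys. It passed the filter on low counts only through the controls, where it was higher, so its fold change carries little weight. In the *Myc* cohort 4 of 10 tested were higher and 6 lower, from *Cyp2r1* at -0.72 ± 0.23 (adjusted p = 0.12) to the coactivator *Ncoa3* at 0.23 ± 0.083 (adjusted p = 0.15).

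*Pth1r*, the receptor of parathyroid hormone, was the member closest to a call. It was at 242, 274, 294, 255 and 216 CPM in *Cxcl12* KO and at 347, 389 and 386 CPM in *Cxcl12* Control kidneys. The highest KO kidney, at 294 CPM, lay below the lowest control, at 347 CPM. The log2 fold change was -0.55 ± 0.11 (SE), a fold of 0.684 with a 95% interval from 0.577 to 0.810. The exact two-sided permutation p was 0.018, the smallest this design allows, and the adjusted p was 0.094 with edgeR. It passed the threshold with DESeq2 (adjusted p = 0.00067) and without the filter on low counts (adjusted p = 0.025). Over all other fits of this comparison the log2 fold change remained between -0.61 and -0.48, and it was -0.55 in the kidneys with at least 5% unmapped reads. The adjusted p was 0.20 with the replicate number as a block, and 0.22 to 0.30 when 1 control kidney was left out. *Pth1r* in the *Myc* cohort was at 294, 317, 246, 244 and 210 CPM in KO and at 287, 267, 243, 311 and 301 CPM in controls, with a log2 fold change of -0.09 ± 0.12 and an adjusted p of 0.69.

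Of 7 genes of parathyroid hormone signalling and calcium sensing 5 were tested, and 0 passed the threshold. The extremes in the *Cxcl12* cohort were *Casr*, the calcium-sensing receptor, at -1.01 ± 0.22 (SE, adjusted p = 0.11) and *Pde4d*, a phosphodiesterase of cyclic AMP, at 0.28 ± 0.12 (adjusted p = 0.37). *Casr* was at 8.96 to 22.6 CPM in KO and at 27.3 to 33.1 CPM in control kidneys, without overlap. In the *Myc* cohort *Casr* was again the lowest at -0.084 ± 0.12 and *Pde4d* the highest at 0.32 ± 0.098, with adjusted p of 0.72 and 0.11.

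The transporters on which these hormones act were also examined. None of 14 genes of calcium and phosphate transport passed the threshold in either cohort. In *Cxcl12* KO 9 were lower and 5 higher, with a median log2 fold change of -0.21, from *Slc8a1*, a sodium-calcium exchanger, at -0.76 ± 0.21 (SE, adjusted p = 0.17) to *Atp2b1*, a calcium pump, at 0.20 ± 0.11 (adjusted p = 0.46). The lowest adjusted p of the list, 0.062, belonged to *Pdzk1*, a scaffold of apical transporters, at -0.59 ± 0.084. In *Myc* KO 9 were higher and 5 lower, with a median of 0.059, from *Slc20a2* at -0.15 ± 0.083 to *Slc34a3* at 0.37 ± 0.15, both phosphate transporters, with adjusted p of 0.29 and 0.20.

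**Figure D2:**
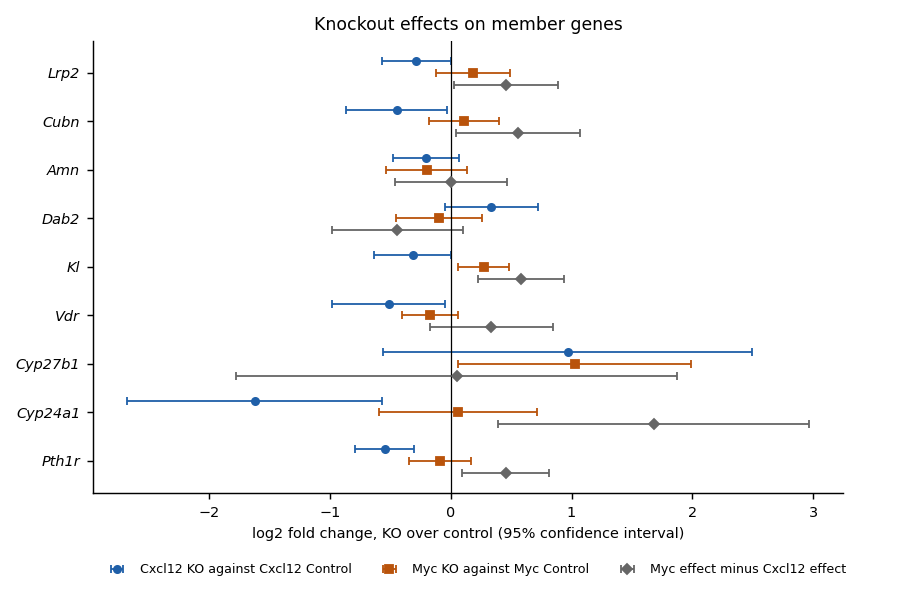
Log2 fold change (KO over control, horizontal axis) of each of the 9 genes with its 95% confidence interval, in the *Cxcl12* cohort (circles), in the *Myc* cohort (squares) and as the *Myc* effect minus the *Cxcl12* effect (diamonds). The interval of *Pth1r* in the *Cxcl12* cohort runs from -0.79 to -0.30 and that of *Kl* in the *Myc* cohort from 0.061 to 0.48, and the widest intervals belong to *Cyp27b1* and *Cyp24a1*.

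Whether the KO effects differed between the cohorts was tested over all 18 kidneys. None of the 9 differences passed the threshold, beside 0.0692% of 15903 genes, and 5 had an unadjusted p under 0.05 (*Lrp2*, *Cubn*, *Kl*, *Cyp24a1* and *Pth1r*), beside 11.4%. The *Myc* effect minus the *Cxcl12* effect was 0.58 ± 0.17 (SE) log2 units for *Kl*, with an interval from 0.22 to 0.94 and an adjusted p of 0.15. With DESeq2 the adjusted p of *Kl* was 0.049, which made it the only member called, beside 1.97% of all genes. The difference was 1.68 ± 0.61 for *Cyp24a1* (adjusted p = 0.27), 0.45 ± 0.17 for *Pth1r* (adjusted p = 0.28), 0.55 ± 0.24 for *Cubn* (adjusted p = 0.39) and 0.46 ± 0.20 for *Lrp2* (adjusted p = 0.40). For *Amn* the estimate was 0.0028 with an interval from -0.46 to 0.47, which leaves room for a difference in either direction. For *Cyp27b1* the interval from -1.78 to 1.88 covered still more.

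Across all 4 groups the order of the mean CPM was led by *Cxcl12* Control for 6 of the 9 genes: *Lrp2*, *Cubn*, *Amn*, *Vdr*, *Cyp24a1* and *Pth1r*. The 3 others were led by *Cxcl12* KO (*Dab2* and *Cyp27b1*) or *Myc* KO (*Kl*). Most neighbours in these orders overlapped. Those that did not were *Cxcl12* Control over *Cxcl12* KO for *Lrp2* (means 1180 and 972 CPM), *Cxcl12* Control over *Myc* KO for *Cyp24a1* (487 and 185 CPM) and *Cxcl12* Control over *Myc* Control for *Pth1r* (374 and 282 CPM). For *Cyp24a1* the control groups of the cohorts had means of 487 ± 69.9 CPM (SD, n = 3, *Cxcl12*) and 179 ± 33.7 CPM (SD, n = 5, *Myc*). The floxed gene and any difference in the handling of the cohorts cannot be told apart in such a contrast. The shares of all genes led by *Cxcl12* Control, or with such neighbours apart, were not computed. The counts in these orders therefore only describe the members.

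Which members varied together was described over the 18 kidneys by correlations of log2 CPM, with permutation tests (100000 resamples, two-sided) adjusted over the 36 pairs. Kidneys were permuted across the groups, so that differences between groups enter these p-values. How many of all gene pairs run together as closely was not computed. Of the 36 pairs 8 had a Pearson r with an adjusted p under 0.05, and 3 also a Spearman rho. The highest was that of the receptors *Lrp2* and *Cubn*, with r = 0.86 (permutation p = 1e-05, the smallest the resamples give, adjusted 0.00036) and rho = 0.82 (permutation p = 3e-05, adjusted 0.0011). It was 0.81 without the 2 kidneys farthest from the median of *Lrp2*, 0.83 on deviations from the group means, 0.95 in the 6 kidneys with under 5% unmapped reads and 0.83 in the other 12. Within the *Cxcl12* cohort it was 0.91 and within the *Myc* cohort 0.89. By contrast *Amn*, whose protein forms a complex with cubilin, had r = 0.20 with *Cubn* (permutation p = 0.42, adjusted 0.56) and rho = 0.21 (permutation p = 0.41, adjusted 0.52).

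*Vdr* and *Cyp24a1* had r = 0.78 (permutation p = 0.00012, adjusted 0.0022) and rho = 0.74 (permutation p = 0.00089, adjusted 0.016). Without the 2 kidneys farthest from the median of *Vdr* r was 0.64, and it was 0.67 on deviations from the group means, 0.54 in the 6 kidneys with under 5% unmapped reads and 0.81 in the other 12. It was 0.86 within the *Cxcl12* cohort and 0.44 within the *Myc* cohort, where *Vdr* had a narrower range. *Cyp24a1* and *Pth1r* had r = 0.66 (permutation p = 0.0030, adjusted 0.027) and rho = 0.66 (permutation p = 0.0037, adjusted 0.045). Their r was 0.72 without 2 kidneys and 0.64 and 0.70 on either side of the 5% split, but only 0.28 on deviations from the group means. The relation of *Cyp24a1* and *Pth1r* was thus smaller within groups than between them.

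**Figure D3:**
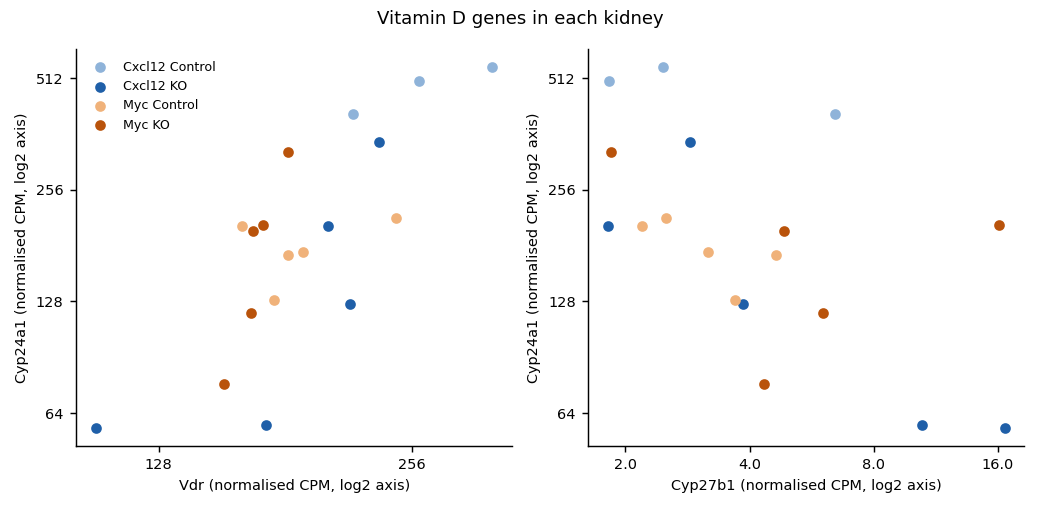
*Cyp24a1* against *Vdr* (left) and against *Cyp27b1* (right) in normalised CPM on log2 axes, with 1 point per kidney coloured by group. The 3 *Cxcl12* Control kidneys hold the highest *Cyp24a1* levels, at 410 to 547 CPM, and *Cyp24a1* increases with *Vdr* (r = 0.78) and decreases with *Cyp27b1* (r = -0.58).

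The activating enzyme went the opposite way. *Cyp27b1* and *Vdr* had r = -0.60 (permutation p = 0.0076, adjusted 0.044) with rho = -0.54 (permutation p = 0.022, adjusted 0.079), and r was -0.42 without 2 kidneys. *Cyp27b1* and *Cyp24a1* had r = -0.58 (permutation p = 0.011, adjusted 0.0495) with rho = -0.56 (permutation p = 0.018, adjusted 0.079), and r was -0.60 without 2 kidneys. Both kept their sign within each cohort and on each side of the 5% split: the second was -0.76 among the *Cxcl12* and -0.28 among the *Myc* kidneys, and -0.61 and -0.59 across the split. *Kl* and *Pth1r* did not behave alike throughout, with r = 0.69 within the *Cxcl12* cohort and -0.66 within the *Myc* cohort, -0.95 in the 6 kidneys with under 5% unmapped reads and 0.63 in the other 12. Their r over all kidneys of 0.12 (permutation p = 0.64, adjusted 0.71; rho = 0.040, permutation p = 0.88, adjusted 0.90) lay between these values.

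**Figure D4:**
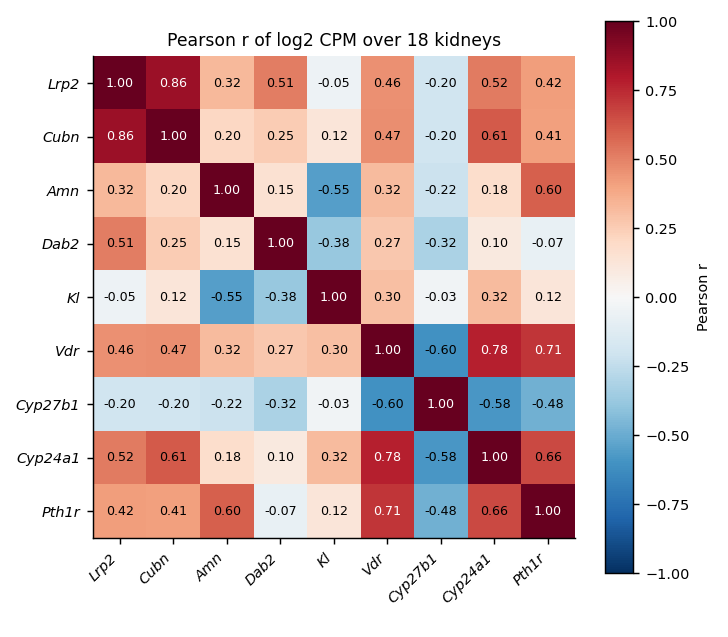
Pearson r of log2 CPM over 18 kidneys for each pair of the 9 genes, with blue for negative and red for positive values. The receptors *Lrp2* and *Cubn* share the highest r (0.86), and *Vdr*, *Cyp24a1* and *Pth1r* form a positive block (0.66 to 0.78). The r of *Cyp27b1* runs from -0.03 with *Kl* to -0.60 with *Vdr*. Only with *Vdr* and *Cyp24a1* did it pass the permutation test after adjustment, and with neither by Spearman rho. Within the *Myc* cohort the r of *Cyp27b1* was above 0 with *Kl* (0.48), *Cubn* (0.18) and *Lrp2* (0.09), and below 0 with the others.

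The genes whose log2 CPM followed a member most closely were sought among 14727 genes tested in both cohorts, over the same 18 kidneys, which share depth, mapping and group. They are given as a description. *Lrp2* was nearest to *Tgfbrap1* (r = 0.94), *Pdpr* (0.92) and *Dnajc13* (0.92), and *Cubn* to *Car9* (0.88), *Sowahb* (0.88) and *Papss2* (0.88). *Amn* was nearest to *Cyba* (0.96), *C1qtnf12* (0.95) and *Gpx4* (0.95), and *Dab2* to *Steap2* (0.91), *Lgr4* (0.88) and *Atp6v1b2* (0.87). *Kl* was nearest to *Arhgap18* (0.88), *Fam81a* (0.87) and *Slit2* (0.87). For *Vdr* the nearest were *Fahd1* (0.90), *St6galnac2* (0.89) and *Rtn4ip1* (0.88), and for *Pth1r* they were *Tysnd1* (0.90), *Sema3b* (0.90) and *Dmtn* (0.90). *Cyp24a1* was nearest to *4933431E20Rik* (0.87), *D230017M19Rik* (0.84) and *Bcl11b* (0.82). The lowest of the top values belonged to *Cyp27b1*, with *Traf3ip2* (0.76), *Osr2* (0.74) and *Map2k1* (0.73), and this was also the member with the fewest counts. No member was among the 3 nearest genes of another.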

How the data were processed

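Whole kidney RNA of 18 mice was measured in 4 groups taken from the labels. The authors trimmed the reads with Trimmomatic 0.32, aligned them to GRCm38 with STAR 2.4.0 and deposited the raw counts per gene without normalization. The deposited counts that ignore strand were used, with names and exon lengths of GENCODE vM21 (45143 of 45706 genes matched). Gene counts summed to 12918220 to 29749500 per kidney.

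For each cohort alone, filterByExpr removed low counts, TMM set the scaling, and edgeR 4.0.16 (R 4.3.3) fitted all genes by its quasi-likelihood method, adjusted by Benjamini-Hochberg at 0.05. The difference of the KO effects used all 18 kidneys. A standard error is the log2 fold change divided by the square root of F. Levels are CPM with a prior count of 2 for log2 values, and TPM from union exon length. Alternatives used DESeq2 1.42.0, limma 3.58.1, other normalizations and strand columns, no filter, a replicate block and leaving out each kidney. A further alternative took as covariate whether the unmapped share was below 5%, which in the *Cxcl12* cohort marks only 2 KO kidneys. The 5% split was chosen after the mapping shares were seen and is not a labelled batch. Fits were tested on simulated data that gave all genes the same spread. Of 98 changes of 1 log2 unit, 77 were found in the *Cxcl12* comparison, 84 in the *Myc* comparison and 23 for the difference. False calls made up 7.73%, 3.14% and 3.23% of the calls, and 0 genes were called in data without changes. Python 3.11.15, scipy 1.17.1 and matplotlib 3.10.9 served for tables and figures.

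All 33 pairs of kidneys of 1 group differed by more than sampling noise (chi-square over its degrees of freedom 6.3 to 76.1). Named were the 9 members, both targets, the lowest and highest gene of each partner list and its lowest adjusted p, and the 3 genes nearest each member. A value that this rule would name is not reported here. *Fgfr1* and *Casr* levels, *Pdzk1*, *Spp1*, *Star*, *Adipoq*, *Plin1* and the *Myc* cohort value of *Havcr1* were given after values were seen. So were the *Cxcl12* cohort directions of the loop, distal tubule and collecting duct markers. The members and lists were chosen with earlier results of these data known. Promoter sequences are from RefSeq (GRCm38.p6).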

Additional observations from a re-analysis of the deposited data

Results flagged for a closer look

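The level of *Amn*, which encodes the anchor of cubilin, stood apart in 1 kidney. *Myc* Control replicate 4 had 151.4 CPM, while the other 4 *Myc* Control kidneys had 98.6 to 113.4 CPM, and the gap took up 0.720 of the range of the group. Of 27 sets of 5 kidneys examined 1 stood out in this way, where chance gives about 1 in 20. Without this kidney the *Myc* log2 fold change of *Amn* was -0.075 in place of -0.20. The cause was not tested.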

How the results depend on the processing

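The number of the 9 genes past the threshold, 0 in each comparison, became 2 without the filter on low counts (*Cyp24a1* and *Pth1r*) and 1 with DESeq2 (*Pth1r*) in the *Cxcl12* cohort, and 1 with DESeq2 (*Kl*) for the difference of the KO effects. It stayed 0 under the other alternatives, leaving out each kidney included. Of 369 fits of single genes under alternatives, 359 kept direction and side of the threshold, 7 reversed direction and 3 passed the threshold. The reversals were all in the *Myc* cohort and of values near 0: *Lrp2* at -0.19 and *Cubn* at -0.26 in kidneys with under 5% unmapped reads, *Cyp24a1* at -0.095 with limma-voom, *Dab2* between -0.18 and 0.014 and *Cyp24a1* between -0.24 and 0.25 when 1 kidney was left out. The cause was not tested. Over all genes, the *Cxcl12* comparison called 0 genes, and up to 355 (DESeq2) under alternatives, among them 214 without the filter. The *Myc* comparison called 246, and from 0 (4 kidneys with under 5% unmapped reads) to 1139 (DESeq2). The difference called 11, and from 1 to 314 (DESeq2).

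With the replicate number as a replicate block, *Cyp24a1* in the *Myc* cohort was at -0.075, and the *Cxcl12* values, from the 3 numbers present in both groups, became -0.15 for *Kl* (-0.31 without the block), -0.34 for *Amn* (-0.21) and 0.62 for *Cyp27b1* (0.97). With this block 0 members and 0 (*Cxcl12*), 18 (*Myc*) and 1 (difference) of all genes were called. Kidneys of the same number showed no clear pairing, although 3 and 5 pairs are too few to exclude it. Their deviations correlated at -0.035 to 0.14 (*Cxcl12*) and -0.16 to 0.38 (*Myc*). Of the controls, 2 of 3 (*Cxcl12*) and 0 of 5 (*Myc*) correlated best with their own number. Small *Myc* log2 fold changes moved by over 1.5 times without single kidneys: without 1 kidney *Lrp2* was 0.10 to 0.31, *Cubn* 0.027 to 0.21 and *Pth1r* -0.17 to -0.014. Depth limits *Cyp27b1* most, at 33 to 269 counts per kidney.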

Other observations

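The members were also set beside *Lcn2* and *Havcr1*, known markers of tubular injury, over the 18 kidneys. This pair was chosen after values had been seen. The 18 relations were adjusted together, which does not cover that choice. Kidneys were permuted across the groups, and how many of all genes run with these markers as closely was not computed. Of the 18 relations 8 had a Pearson r with an adjusted p under 0.05, and 7 of these also a Spearman rho. *Lcn2*, which encodes NGAL, had a negative r of that kind with 6 members. It was -0.69 with *Cubn* (permutation p = 0.0013, adjusted 0.014; rho = -0.67, permutation p = 0.0028, adjusted 0.014) and -0.67 with *Lrp2* (permutation p = 0.0029, adjusted 0.014; rho = -0.69, permutation p = 0.0018, adjusted 0.014). Without the 2 kidneys farthest from the median of *Lcn2* these were -0.52 and -0.55. They were -0.96 and -0.95 in the 6 kidneys with under 5% unmapped reads and -0.64 and -0.60 in the other 12. Within the *Cxcl12* cohort they were -0.87 and -0.82, and within the *Myc* cohort only -0.28 and -0.094. On deviations from the group means they were -0.62 and -0.46.

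*Lcn2* had r = -0.65 with *Amn* (permutation p = 0.0028, adjusted 0.014; rho = -0.70, permutation p = 0.0016, adjusted 0.014), -0.69 without 2 kidneys, -0.67 and -0.68 on the sides of the 5% split, -0.15 within the *Cxcl12* and -0.82 within the *Myc* cohort. With *Pth1r* r was -0.64 (permutation p = 0.0042, adjusted 0.014; rho = -0.55, permutation p = 0.019, adjusted 0.048), -0.45 without 2 kidneys, -0.65 and -0.61 across the split, and -0.69 and -0.65 within the cohorts. With *Vdr* r was -0.63 (permutation p = 0.0045, adjusted 0.014; rho = -0.67, permutation p = 0.0032, adjusted 0.014), -0.57 without 2 kidneys, -0.93 and -0.60 across the split, and -0.59 and -0.66 within the cohorts. With *Cyp24a1* r was -0.55 (permutation p = 0.017, adjusted 0.041; rho = -0.51, permutation p = 0.032, adjusted 0.058), -0.36 without 2 kidneys, -0.54 and -0.57 across the split, and -0.84 and -0.24 within the cohorts. On deviations from the group means r was only -0.37 with *Amn*, -0.32 with *Pth1r*, -0.28 with *Vdr* and -0.35 with *Cyp24a1*. These relations were thus smaller within groups than over all kidneys.

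*Havcr1*, which encodes KIM-1, ran with the adaptor *Dab2*, at r = 0.64 (permutation p = 0.0046, adjusted 0.014; rho = 0.59, permutation p = 0.012, adjusted 0.036), 0.61 without 2 kidneys, 0.84 and 0.65 on the sides of the 5% split, and 0.66 and 0.54 within the *Cxcl12* and *Myc* cohorts. With *Amn* its r was 0.55 (permutation p = 0.018, adjusted 0.041; rho = 0.59, permutation p = 0.012, adjusted 0.036), 0.48 without 2 kidneys, 0.60 and 0.79 across the split, and -0.041 and 0.58 within the cohorts. On deviations from the group means the r of *Havcr1* was 0.64 with *Dab2* and only 0.29 with *Amn*. The injury markers themselves ran opposite to each other in these kidneys, with r = -0.75 (permutation p = 0.00033) and rho = -0.75 (permutation p = 0.00061), -0.83 without 2 kidneys, and -0.97 and -0.70 on the sides of the split. Within the *Cxcl12* cohort it was only -0.35, within the *Myc* cohort -0.83, and on deviations from the group means -0.70. *Lcn2* and *Kl* had r = -0.62 within the *Cxcl12* cohort and 0.85 within the *Myc* cohort, and 0.21 over all kidneys (permutation p = 0.41, adjusted 0.41; rho = 0.27, permutation p = 0.28, adjusted 0.30). No explanation of these relations was tested.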
